A study of Danio rerio with 30 samples.

Results

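Genes that mark microglia and macrophages were followed in retinas of adult zebrafish (Danio rerio) in 2 injury experiments. The list held 38 gene names, chosen by name with earlier results of these data known. Of these, 33 had a row among the 32520 Ensembl genes of the tables: 22 as written, 8 in another letter case and 3 (spi1b, mrc1a and wasb) through a capital symbol without the paralog letter. No row carried the names mpeg1.1, mpeg1.2, grn1, grn2 or cx3cr1. In the needle-poke experiment all fish were wild type, and the groups were untreated uninjured fish and fish injured with a needle through the back of the eye and immersed in water with DMSO, PLX3397 or ZVAD-fmk. DMSO is a solvent. PLX3397, also called pexidartinib, blocks the receptor for colony-stimulating factor 1, and ZVAD-fmk blocks caspases, which carry out apoptosis. The NMDA experiment used no inhibitor: wild-type, csf1ra mutant and csf1rb mutant fish were uninjured or were injected in the eye with NMDA, a glutamate receptor agonist that kills retinal neurons. Injured fish were killed 2 days after the injury, and each of the 10 groups had 3 libraries of polyA RNA.

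The design sets limits on each group as a model. The uninjured fish of the poke experiment had no treatment, so injury and DMSO cannot be told apart there. The NMDA experiment had no group injected without NMDA, so NMDA and the injection into the eye cannot be told apart either. The labels give no mutant allele beyond the gene name, and they do not say whether libraries of a group are different fish, so p-values rest on the spread between libraries. Sample titles carry the letters MG, but the protocol describes whole retinas with no cell sorting. Summed markers of rods, cones and Müller glia were present in every library (96.4 to 3220 CPM for rods, 221 to 3330 CPM for cones and 492 to 5880 CPM for Müller glia). In bulk retina, fewer cells of a type and less RNA per cell cannot be told apart.

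Microglia are the resident macrophages of the retina. They survey the tissue, engulf dying neurons and debris, and after injury they can be joined by macrophages from the blood. Their survival depends on the colony-stimulating factor 1 receptor, which zebrafish carry as the paralogs csf1ra and csf1rb. The transcription factors Spi1 (PU.1) and Irf8 set up the lineage. Scavenger and phagocytic receptors such as marco and havcr1, the adapters that signal for such receptors, lysosomal proteases, the NADPH oxidase that makes superoxide, and the actin proteins of leukocytes carry out its work.

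Library totals in expected counts ran from 38933511 to 92198888 for poke and from 22849708 to 41622168 for NMDA libraries. After removal of genes with low counts, 31 of the 33 genes were tested in the poke experiment (all but tyrobp and siglec15l) and 30 in the NMDA experiment (all but p2ry12, fcer1g and siglec15l). Levels are given as CPM, counts scaled to the library total after TMM, always in the order of replicate numbers (1, 4 and 5 for the csf1ra mutant uninjured libraries, and 1, 2 and 4 for the csf1rb mutant NMDA libraries). A gene is called changed at an adjusted p below 0.05 in edgeR's quasi-likelihood test, with Benjamini-Hochberg adjustment over all tested genes, and fold changes are on the log2 scale with their standard error. The targeted gene csf1ra lay at 4.34, 3.92 and 4.19 CPM in wild-type uninjured retinas and at 0.16, 0.32 and 0.26 CPM in csf1ra mutants. It was also lower in csf1rb mutants, at 1.14, 1.89 and 1.03 CPM. After NMDA csf1ra lay at 7.47, 6.78 and 6.68 CPM in wild type. It then lay at 1.27, 1.45 and 1.45 CPM in csf1ra mutants and at 3.30, 3.44 and 4.13 CPM in csf1rb mutants. The gene csf1rb was low in all groups. It lay at 0.661, 0.33 and 0.792 CPM in wild-type uninjured retinas, at 0.0813, 0.37 and 0.0573 CPM in csf1rb mutants and at 0.0808, 0.175 and 0.0369 CPM in csf1ra mutants, so that csf1rb mutant replicate 2 lay above 1 wild-type library and the csf1ra mutants were as low. After NMDA it lay at 0.268, 0.343 and 0.373 CPM in wild type and at 0, 0.0239 and 0.0353 CPM in csf1rb mutants.

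Library 3 of the poke DMSO group stood apart. It was the highest of the 12 poke libraries for 30 of the 33 genes, with a median ratio of 4.9 to the mean of the other DMSO libraries. How often this library was the highest over all genes was not counted. Its summed erythrocyte markers were 36.5 CPM against 7.33 and 6.8, and its summed neutrophil markers were 34.8 CPM against 12 and 11. The largest share of that sum is nccrp1 (15.7 CPM against 8.81 and 9.04), and the other 4 neutrophil markers were further apart: npsn at 9.47 CPM against 1.25 and 0.74, csf3r at 4.79 against 0.957 and 0.74, mmp13a at 2.55 against 0.398 and 0.103, and lyz at 2.29 against 0.635 and 0.329. The part of other cells in its high levels was not tested. On the third principal component of the poke libraries, with 9.37% of the variance, the highest score within each group belonged to DMSO replicate 3, PLX3397 replicate 2, ZVAD-fmk replicate 1 and untreated replicate 2. Every group has a highest score, so this rule alone does not show that a library differs from the rest of its group. For ZVAD-fmk replicate 1 the score was 18.5, against 6.92 and 8.48 for replicates 2 and 3. The gaps were wider in the other groups. DMSO replicate 3 scored 18.4 against -30.7 and -31.1, and PLX3397 replicate 2 scored 27.7 against -28.5 and -11.1. Untreated replicate 2 scored 95.6 against -38.7 and -35.5. Counts of calls in the poke experiment are also given without these 4 libraries, called below the libraries that stood apart. Those that use the DMSO group are also given without DMSO replicate 3 alone. Leaving out libraries picked by this rule can narrow the spread within groups, which by itself can add calls.

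As a summary, the mean of log2(CPM + 0.5) over the 33 genes was taken in each library. In the NMDA experiment it was 0.85 ± 0.08 (SD, n = 3) in wild-type uninjured retinas, and it was 1.74 ± 0.14 after NMDA. The csf1ra mutants stood at -0.04 ± 0.10 uninjured and at 0.82 ± 0.10 after NMDA, a range that overlapped with that of uninjured wild type. The csf1rb mutants stood at 0.19 ± 0.07 uninjured and at 0.43 ± 0.06 after NMDA. In the poke experiment the untreated uninjured libraries stood at 1.11, 1.66 and 1.18, the DMSO libraries at 2.1, 2.17 and 4.18, the PLX3397 libraries at 0.87, 1.15 and 1.34, and the ZVAD-fmk libraries at 2.13, 1.97 and 1.93. All DMSO and ZVAD-fmk libraries lay above all PLX3397 and uninjured libraries.

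**Figure D1:**
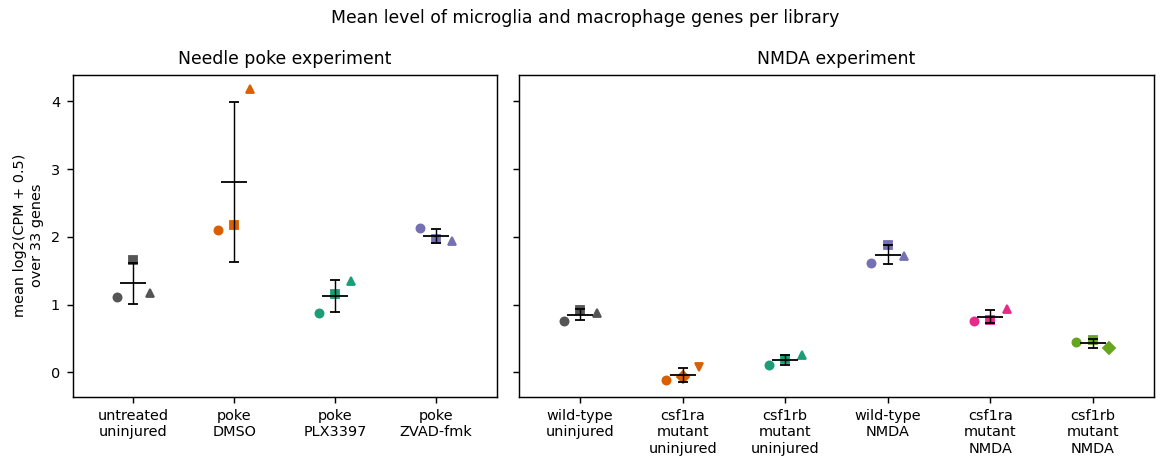
Mean of log2(CPM + 0.5) over the 33 microglia and macrophage genes (vertical axis) in each library (points), by group, with the mean and SD of the group. Wild-type retinas went from 0.85 to 1.74 on average after NMDA while csf1rb mutants went from 0.19 to 0.43, and the third poke DMSO library stands at 4.18.

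**Figure D2:**
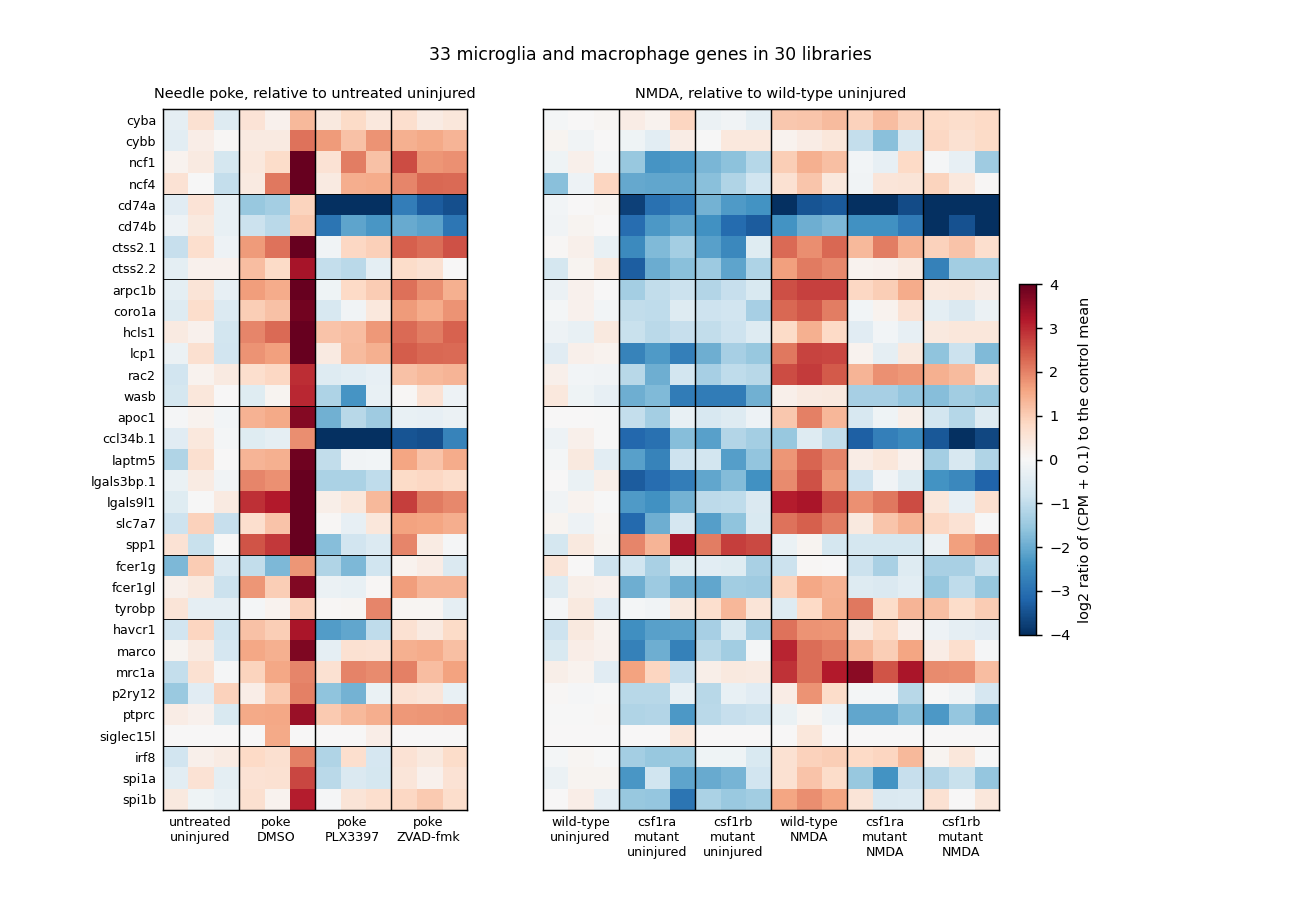
Log2 ratio of (CPM + 0.1) to the mean of the uninjured wild-type group of the same experiment, for the 33 genes (rows) in the 30 libraries (columns), ordered by role. The 6 uninjured mutant columns are low for most rows, spp1 is the row that is high in them, and the cd74a, cd74b and ccl34b.1 rows are low in injured PLX3397 and ZVAD-fmk retinas.

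Uninjured retinas of csf1ra mutants expressed most of these genes at a fraction of the wild-type level. Of the 30 genes tested, 24 were lower and 1 was higher, beside 6.74% and 7.94% of all tested genes, and the median log2 fold change was -2.08. The mutant level had a median of 23.5% of the wild-type level. All 3 transcription factors, all 4 antigen and phagosome genes and all 6 actin genes were called lower. The genes without a call were apoc1, tyrobp, mrc1a and the oxidase subunits cybb and cyba.

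The transcription factor irf8, which zebrafish microglia need to form, lay at 1.03, 1.17 and 1.09 CPM in wild-type uninjured retinas and at 0.363, 0.316 and 0.332 CPM in csf1ra mutants. The groups did not overlap, and irf8 fell by 1.70 ± 0.28 (adjusted p = 0.00065). The paralog spi1b lay at 1.24, 1.47 and 0.943 CPM in wild type and at 0.363, 0.35 and 0.0737 CPM in csf1ra mutants, all below the lowest wild-type library (-2.2 ± 0.43, adjusted p = 0.0027).

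Among the surface receptors, the scavenger receptor marco had 2 counts in all csf1ra mutant uninjured libraries together, against 0.331, 0.696 and 0.641 CPM in wild type. The receptor havcr1, which in mammals binds phosphatidylserine on dying cells, lay at 0.331, 0.916 and 0.755 CPM in wild type and at 0.0404, 0.0701 and 0.0737 CPM in csf1ra mutants (-3.35 ± 0.51, adjusted p = 0.00033). The mutant libraries all lay below the wild-type libraries for both receptors. The leukocyte phosphatase ptprc (CD45) lay at 4.13, 4.14 and 4.38 CPM in wild type and at 1.78, 1.82 and 0.774 CPM in csf1ra mutants, again with no overlap (-1.53 ± 0.27, adjusted p = 0.00095).

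The cd74a and cd74b genes encode the invariant chain that escorts MHC class II. In wild-type uninjured retinas cd74a lay at 10.6, 11.6 and 11.9 CPM, and in csf1ra mutants at 0.767, 1.33 and 1.59 CPM. Every mutant library lay far below every wild-type library (-3.20 ± 0.33, adjusted p = 6.5e-06). The actin-bundling protein gene lcp1 (L-plastin) lay at 1.12, 1.83 and 1.74 CPM in wild type and at 0.162, 0.245 and 0.147 CPM in csf1ra mutants (-3.04 ± 0.39, adjusted p = 7.2e-05). The secreted galectin-3-binding protein gene lgals3bp.1 lay at 10.7, 8.69 and 12.3 CPM in wild type and at 0.969, 1.19 and 1.48 CPM in csf1ra mutants (-3.11 ± 0.29, adjusted p = 2.3e-06). For lcp1 and lgals3bp.1 too the groups were wide apart.

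The csf1rb mutants, set against the same wild-type libraries, were also lower in most roles. Of 30 genes, 21 were lower and 1 higher, beside 12.4% and 14.5% of all tested genes, and the median log2 fold change was -1.46. Their median level was 34.8% of wild type. Here too all 4 antigen and phagosome genes and all 6 actin genes were called lower, while irf8, marco and ncf4 joined the genes without a call. In csf1rb mutants irf8 lay at 0.976, 0.962 and 0.688 CPM, marco at 0.203, 0.148 and 0.516 CPM, and lgals3bp.1 at 2.40, 3.11 and 1.89 CPM. The lgals3bp.1 values were below all wild-type libraries (-2.11 ± 0.26, adjusted p = 2.3e-05), whereas the marco values overlapped with wild type.

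The gene spp1, which encodes the secreted phosphoprotein osteopontin, went the other way in both mutants. It lay at 0, 0.11 and 0.0755 CPM in wild-type uninjured retinas, at 0.525, 0.316 and 1.48 CPM in csf1ra mutants and at 0.569, 0.999 and 0.917 CPM in csf1rb mutants. All 6 mutant libraries lay above all wild-type libraries, and spp1 was higher by 3.51 ± 0.90 in the former mutant (adjusted p = 0.018) and by 3.62 ± 0.89 in the latter (adjusted p = 0.0075). The call in csf1ra mutants ended without wild-type replicate 1 or 3 or without csf1ra mutant replicate 5.

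Of the 25 calls in csf1ra mutants 16 remained when any 1 library was left out, and of the 22 in csf1rb mutants 15 remained. Those that ended were coro1a, ctss2.1, hcls1, laptm5, ncf4, rac2, slc7a7, spi1a and spp1 in csf1ra mutants, and ctss2.1, havcr1, hcls1, laptm5, lgals9l1, slc7a7 and spi1a in csf1rb mutants. Each of the 9 libraries ended between 2 and 6 calls of a comparison when left out. The summed neutrophil markers were 9.43 to 11.8 CPM in wild-type uninjured retinas, 23.9 to 37.1 CPM in csf1ra mutants and 13.3 to 15.1 CPM in csf1rb mutants. These sums are mostly nccrp1, at 24.2, 21.9 and 34.7 CPM in csf1ra mutants. The neutrophil receptor gene csf3r lay lower in the mutants, like most of the list, at 1.16, 0.88 and 1.09 CPM in wild type, 0.0808, 0.28 and 0.184 CPM in csf1ra mutants and 0.0813, 0.037 and 0.0859 CPM in csf1rb mutants, so the neutrophil markers did not move as 1 set. Their part in the levels of genes that neutrophils also express, such as the oxidase and actin genes, was not tested.

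Markers of other cells differed between the same uninjured groups. Summed rod markers were 2700 to 3220 CPM in wild type, 1100 to 1700 CPM in csf1ra mutants and 236 to 504 CPM in csf1rb mutants, and summed cone markers were 1840 to 2420, 1650 to 2350 and 779 to 1180 CPM. Summed erythrocyte markers were 12.2 to 18.2 CPM in wild type, 2.03 to 3.28 CPM in csf1ra mutants and 1.1 to 6.67 CPM in csf1rb mutants. The mutants were thus also lower in rod and erythrocyte markers, and the csf1rb mutants in cone markers. The part of these shifts in the lower levels of the list was not tested.

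The mutants were also compared with each other without injury. The gene cyba, which encodes the p22phox subunit of the oxidase, was higher in csf1ra than in csf1rb mutants, at 12.2, 11.1 and 18.1 CPM against 8.5, 8.95 and 7.65 CPM with no overlap (0.73 ± 0.16, adjusted p = 0.0051). The genes irf8, marco, havcr1, lgals3bp.1 and lgals9l1 were lower. The calls were thus 1 and 5 of 30 genes, beside 7.78% and 8.57% of all tested genes. For irf8 the csf1ra mutants lay below the csf1rb mutants in all libraries (-1.36 ± 0.28, adjusted p = 0.0041). The calls of marco and lgals9l1 ended without csf1ra mutant replicate 1 or csf1rb mutant replicate 3, that of havcr1 without csf1ra mutant replicate 1 or csf1rb mutant replicate 2, and that of lgals3bp.1 without any 1 of 4 libraries. With only these 6 libraries in the edgeR fit none of the 16 list genes then tested was called, with 5 at an unadjusted p below 0.05. That fit called 4.26% of all tested genes. DESeq2 on the whole experiment called 8 of 30, beside 20.4% of all tested genes.

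NMDA injury raised most of the list in wild-type retinas. At 2 days, 20 of 30 genes were higher and 3 were lower than in uninjured retinas, beside 35.6% and 34.3% of all tested genes, and the median log2 fold change was 1.44. The genes without a call were spi1a, ptprc, tyrobp, cybb, ncf4, spp1 and wasb. The transcription factors spi1b and irf8 rose, 3 of 4 receptors rose, and 5 of 6 actin genes rose. All calls but that of ccl34b.1 remained when any 1 library was left out, and the ccl34b.1 call ended without wild-type uninjured replicate 2 or 3 or without wild-type NMDA replicate 1 or 3.

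The galectin gene lgals9l1 lay at 1.24, 1.5 and 1.36 CPM in wild-type uninjured retinas and at 12.7, 14.0 and 8.43 CPM after NMDA, with no overlap (3.09 ± 0.28, adjusted p = 3.8e-08). The mannose receptor gene mrc1a, an endocytic lectin of macrophages, went from 0.124, 0.11 and 0.0377 CPM to 1.31, 0.799 and 1.60 CPM (3.72 ± 0.69, adjusted p = 0.00012). The small GTPase gene rac2, which drives leukocyte migration and activates the oxidase, went from 0.661, 0.513 and 0.491 CPM to 3.92, 4.42 and 3.47 CPM (2.82 ± 0.31, adjusted p = 3.1e-07). For each of these genes every injured library was above every uninjured one.

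Other genes of the list rose with them. The gene marco reached 5.33, 3.01 and 2.69 CPM after NMDA in wild type (2.71 ± 0.43, adjusted p = 2.4e-05), and arpc1b, a subunit of the Arp2/3 complex that branches actin, went from 1.2, 1.61 and 1.43 CPM to 8.91, 10.1 and 9.96 CPM (2.76 ± 0.21, adjusted p = 3.6e-09). The lysosomal cysteine protease genes ctss2.1 and ctss2.2 (cathepsin S) rose by 2.30 ± 0.43 and 1.96 ± 0.37 (adjusted p = 0.00013 and 0.00015). The apolipoprotein gene apoc1 lay at 13.3, 13.3 and 13.1 CPM uninjured and at 27.7, 53.3 and 33.5 CPM after NMDA (1.53 ± 0.28, adjusted p = 9.3e-05). All of these groups were apart from each other.

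The invariant chain genes cd74a and cd74b moved against most of the list. After NMDA, wild-type cd74a lay at 0.402, 0.952 and 1.01 CPM, under all uninjured libraries (-3.86 ± 0.34, adjusted p = 2.5e-08). Its paralog cd74b went from 5.54, 6.56 and 6.11 CPM to 1.07, 1.49 and 1.68 CPM (-2.1 ± 0.32, adjusted p = 1.4e-05). The chemokine gene ccl34b.1 went from 2.48, 3.33 and 2.87 CPM to 0.938, 1.98 and 1.42 CPM (-1.01 ± 0.40, adjusted p = 0.034). The leukocyte gene ptprc had no call, at 3.52, 4.45 and 3.65 CPM after NMDA, which overlapped with the uninjured libraries. The summed neutrophil markers were 26.5 to 28 CPM in wild type after NMDA, of which nccrp1 made up 22.8 to 24.8 CPM, and csf3r lay at 0.871, 1.41 and 1.49 CPM. Summed rod markers were 477 to 899 CPM and cone markers 516 to 1030 CPM, below their uninjured ranges. The part of these shifts in the rises was not tested.

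**Figure D3:**
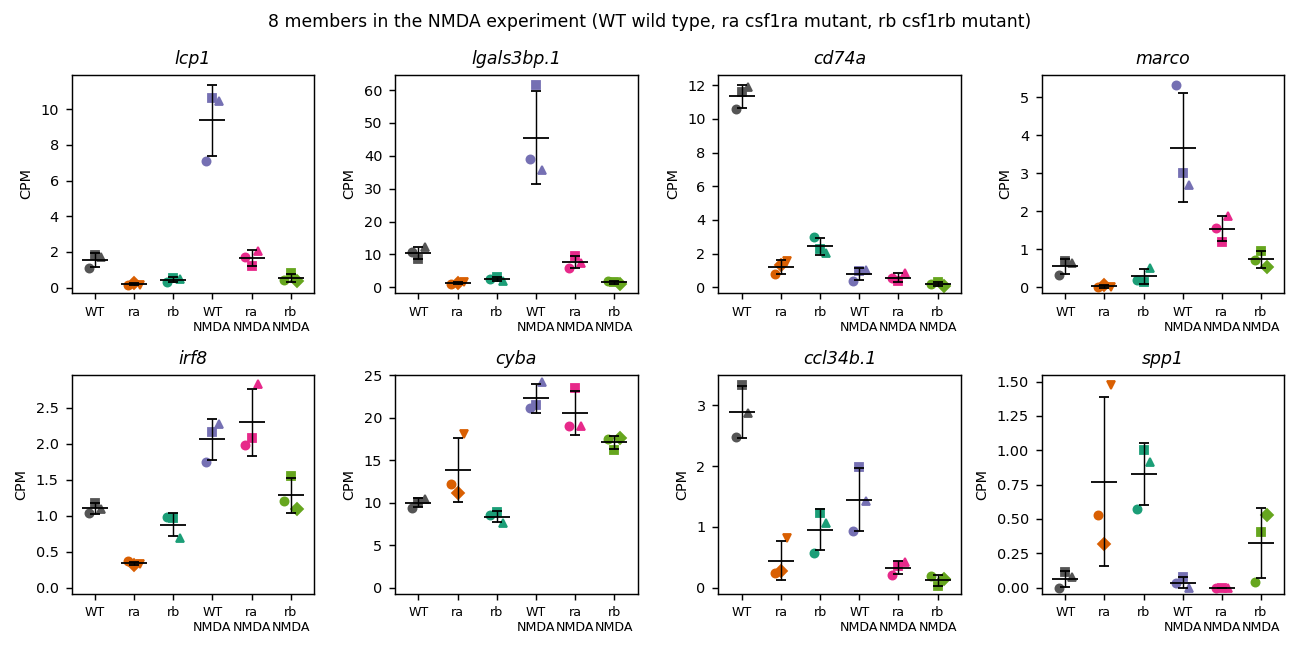
CPM (vertical axis, linear, a separate scale in each panel) of 8 of the genes in the 18 libraries of the NMDA experiment (points), by genotype and injury, with the mean and SD of each group of 3. Wild-type cd74a drops from 10.6 to 11.9 CPM to at most 1.01 CPM after NMDA, and lgals3bp.1 in csf1rb mutants stays at or below 3.11 CPM in both states.

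In csf1ra mutants the genes also rose after NMDA, from their low starting level. There 22 of 30 genes were higher and 3 were lower, beside 36.4% and 37.1% of all tested genes, and the median log2 fold change was 2.2. The lower genes were cd74a, cybb and spp1. The gene marco, with 2 counts before injury, lay at 1.56, 1.2 and 1.86 CPM after it. The gene irf8 went from 0.363, 0.316 and 0.332 CPM to 1.98, 2.08 and 2.83 CPM (2.76 ± 0.27, adjusted p = 5.1e-08). Injured wild-type retinas had irf8 at 1.74, 2.17 and 2.27 CPM, a range that overlapped with the mutants.

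More genes of the list rose in csf1ra mutants. The gene lgals9l1 went from 0.202, 0.175 and 0.295 CPM to 5.10, 6.24 and 8.91 CPM (4.89 ± 0.36, adjusted p = 1.8e-09), and havcr1 went to 0.885, 1.16 and 0.76 CPM (3.82 ± 0.49, adjusted p = 1.7e-06). The uninjured and injured libraries were apart for both. The oxidase gene cybb, which encodes the catalytic gp91phox subunit, fell from 2.46, 2.07 and 3.47 CPM to 1.42, 0.811 and 1.76 CPM (-1.0 ± 0.25, adjusted p = 0.0018). No spp1 count was found in the 3 csf1ra mutant NMDA libraries, at least 22.0-fold lower than in the uninjured mutants when the group is set to 3 counts in all. The calls of apoc1, cd74a, hcls1 and tyrobp ended when 1 library was left out. Those of cd74a and tyrobp ended without csf1ra mutant NMDA replicate 1, and those of apoc1, cd74a and hcls1 without replicate 2. All but that of tyrobp also ended without other libraries.

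In csf1rb mutants fewer genes were called higher after NMDA. Of 30 genes, 16 were higher and 4 were lower, beside 37% and 33.5% of all tested genes, with a median log2 fold change of 0.64. With DESeq2, and with another scaling (RLE) in edgeR, 12 were higher and 5 lower. Those fits called 71.4% and 70.6% of all tested genes either way. The gene lcp1 lay at 0.325, 0.555 and 0.487 CPM before and at 0.45, 0.812 and 0.389 CPM after NMDA, with no call, and lgals3bp.1 lay at 1.91, 1.70 and 1.06 CPM after NMDA. Both had risen in wild type and in csf1ra mutants. The genes apoc1, laptm5 (a lysosomal membrane protein of leukocytes), fcer1gl (an immunoreceptor adapter) and ctss2.2 likewise had no call in csf1rb mutants. The strongest rise was that of rac2, from 0.163, 0.222 and 0.201 CPM to 1.65, 1.48 and 0.883 CPM (2.75 ± 0.36, adjusted p = 2.8e-06).

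The genes lower after NMDA in csf1rb mutants were cd74a, cd74b, ptprc and ccl34b.1. The ccl34b.1 libraries went from 0.569, 1.22 and 1.06 CPM to 0.188, 0.0239 and 0.141 CPM, with no overlap (-3.12 ± 0.58, adjusted p = 0.00013). In these mutants 12 of the 20 calls remained when any 1 library was left out, and those that ended were cd74b, coro1a, havcr1, irf8, marco, mrc1a, ncf1 and wasb. Every one of the 6 libraries ended 3 or more of them.

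The difference in the NMDA response between genotypes was tested directly, as an interaction. For csf1rb mutants 7 of 30 genes had a smaller or opposite response than in wild type and none had a larger one, beside 4.07% and 4.1% of all tested genes. These were lcp1 (-2.27 ± 0.46, adjusted p = 0.0066), coro1a (-1.72 ± 0.36, adjusted p = 0.0071), arpc1b (-1.39 ± 0.32, adjusted p = 0.012), lgals3bp.1 (-2.76 ± 0.37, adjusted p = 0.00034), lgals9l1 (-1.86 ± 0.43, adjusted p = 0.013), apoc1 (-1.89 ± 0.39, adjusted p = 0.0074) and ctss2.2 (-2.13 ± 0.63, adjusted p = 0.045). They hold 3 actin genes (coro1a encodes coronin 1A), 3 secreted proteins and a lysosomal protease. All but ctss2.2 remained called when any 1 library was left out, and the ctss2.2 call ended without any 1 of 9 of the 12 libraries.

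For csf1ra mutants the interaction was called in 4 genes with a higher response value (cd74a, cd74b, irf8 and lgals9l1) and in 2 with a lower one (coro1a and cybb), beside 2.56% and 3.27% of all tested genes. For irf8 the difference was 1.86 ± 0.36 (adjusted p = 0.0065), a larger rise than in wild type. For cd74a it was 2.78 ± 0.52 (adjusted p = 0.0053), since cd74a fell by 1.08 ± 0.38 in the mutants, from a level that was already low. The calls of irf8 and cd74a remained when any 1 library was left out. Those of cd74b, coro1a, cybb and lgals9l1 did not, and 1 or more of them ended without each of the 12 libraries.

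**Figure D4:**
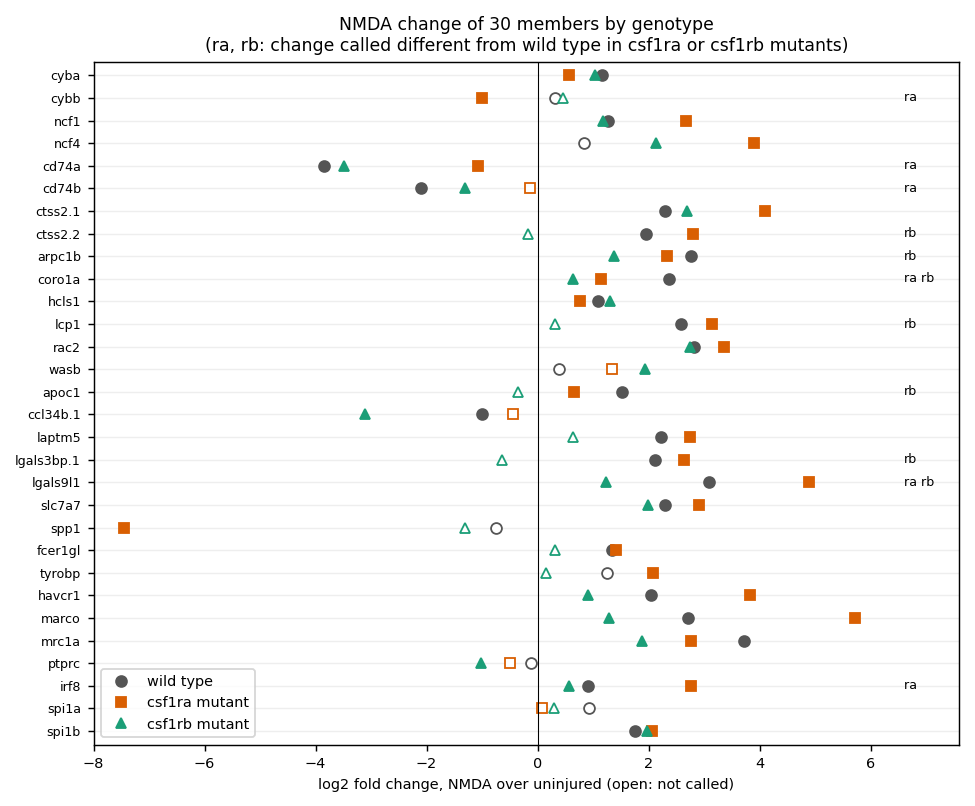
Log2 fold change from uninjured to NMDA (horizontal axis) for 30 genes (rows) in wild-type, csf1ra mutant and csf1rb mutant retinas (symbols), filled where called and open where not. Letters mark genes whose change was called different from wild type, among them lcp1 and lgals3bp.1, which lie at 2.58 and 2.11 in wild type and at 0.31 and -0.65 in csf1rb mutants.

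After NMDA both mutants remained below wild type. In csf1ra mutants 21 of 30 genes were lower and none was higher, beside 13.2% and 9.24% of all tested genes. In csf1rb mutants 23 were lower and 1 was higher, beside 11.4% and 11.9%. The median level was 35.5% of injured wild type in csf1ra mutants and 22.9% in csf1rb mutants. All 6 actin genes were lower in csf1ra mutants, and 5 of them in csf1rb mutants.

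The lowest relative level among called genes was that of lgals3bp.1 in csf1rb mutants, at 1.91, 1.70 and 1.06 CPM against 39.2, 61.7 and 35.8 CPM in wild type (-4.86 ± 0.28, adjusted p = 7.6e-09). The gene lcp1 lay at 7.07, 10.6 and 10.4 CPM in injured wild type, at 1.74, 1.2 and 2.07 CPM in csf1ra mutants (-2.49 ± 0.28, adjusted p = 1.4e-05) and at 0.45, 0.812 and 0.389 CPM in csf1rb mutants (-4.03 ± 0.31, adjusted p = 1.6e-07). The order was the same for both genes, with no overlap between any of the 3 genotypes. The antigen genes cd74a and cd74b were called lower than wild type in csf1rb mutants only, at 0.188, 0.31 and 0.106 CPM for cd74a, where the injured mutants also differed from each other. The spp1 counts were 3 in all wild-type NMDA libraries, so its higher call in csf1rb mutants, at 0.0375, 0.406 and 0.53 CPM, is given without a fold. It ended without any 1 of 5 of the 6 libraries.

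Calls that ended when 1 library was left out were lgals9l1, marco, ncf1, rac2 and slc7a7 in csf1ra mutants, each with csf1ra mutant NMDA replicate 1 among the libraries, and ctss2.1, irf8 and spp1 in csf1rb mutants. The remaining 16 and 21 calls did not end. The summed neutrophil markers were 17.7 to 21 CPM in csf1ra mutants and 21.3 to 23.4 CPM in csf1rb mutants after NMDA, against 26.5 to 28 CPM in wild type, again mostly nccrp1. The marker csf3r lay at 0.177, 0.106 and 0.414 CPM in csf1ra mutants and at 0.0375, 0.0717 and 0 CPM in csf1rb mutants, below all injured wild-type libraries as most of the list was. Summed rod markers were 184 to 321 CPM in injured csf1ra mutants and 96.4 to 238 CPM in injured csf1rb mutants, also below wild type. The part of these shifts in the differences was not tested.

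Injured csf1ra mutants and injured csf1rb mutants differed in 11 of 30 genes. Higher in csf1ra mutants were lcp1, cd74a, cd74b, irf8, mrc1a, lgals3bp.1, lgals9l1, arpc1b and ctss2.2, and lower were cybb and spp1, beside 5.54% and 9.46% of all tested genes. The median log2 fold change was 0.72. For lgals3bp.1 the csf1ra mutants lay at 5.95, 9.52 and 7.32 CPM, above all csf1rb mutants (2.28 ± 0.27, adjusted p = 3.6e-05). For cybb the csf1ra mutants lay at 1.42, 0.811 and 1.76 CPM and the csf1rb mutants at 5.03, 4.37 and 4.87 CPM, with no overlap (-1.83 ± 0.25, adjusted p = 0.0001).

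The invariant chain and osteopontin genes differed as well. For cd74b the csf1ra mutants lay at 1.06, 1.06 and 0.76 CPM and the csf1rb mutants at 0.113, 0.454 and 0.247 CPM, apart from each other (1.72 ± 0.41, adjusted p = 0.0082). The gene spp1 was at least 9.24-fold lower in csf1ra mutants, with the group at 3 counts in all. The calls of arpc1b, cd74a, irf8 and mrc1a ended without csf1rb mutant NMDA replicate 1 or 4 or without csf1ra mutant NMDA replicate 3, among others, and the remaining 7 did not end.

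In the needle-poke experiment, injured DMSO-treated retinas expressed more of these genes than untreated uninjured retinas. Of the 31 genes tested, 23 were higher and none was lower, beside 18.2% and 13.4% of all tested genes, and the median log2 fold change was 2.53. The genes without a call were p2ry12, cd74a, cd74b, irf8, cyba, ccl34b.1, fcer1g and wasb. Unlike in NMDA-injured wild type, cd74a and ccl34b.1 were not called lower, and their NMDA values come from a separate experiment with no test of that difference. For cd74a this depended on DMSO replicate 3, without which it was called lower. Summed Müller glia markers were 2090 to 2220 CPM with DMSO against 3750 to 5880 CPM uninjured. That sum is mostly rlbp1a, at 1638, 1622 and 1648 CPM against 3422, 5362 and 3716 CPM. The other marker, gfap, did not fall, at 495, 464 and 572 CPM with DMSO against 329, 521 and 357 CPM uninjured. Summed pigment cell markers were 7.67 to 12.4 CPM against 0.841 to 3.45 CPM. The part of these shifts in the rises with DMSO was not tested.

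The size of these rises depended on DMSO replicate 3. Without it, 14 genes were called, 13 of them higher, beside 26.6% of all tested genes called either way in that fit. The median log2 fold change was then 1.08. With the 4 libraries that stood apart left out, 20 of 30 genes were called, 19 higher and 1 lower, with a median of 1.68, beside 39.2% of all tested genes called either way in that fit. Without DMSO replicate 3 alone, the called rises were hcls1, ctss2.1, ctss2.2, lcp1, lgals9l1, arpc1b, lgals3bp.1, spp1, marco, ptprc, apoc1, laptm5 and fcer1gl. The 10 rises that ended without DMSO replicate 3 were coro1a, cybb, havcr1, mrc1a, ncf1, ncf4, rac2, slc7a7, spi1a and spi1b. They include both spi1 paralogs and all oxidase calls. All but coro1a among them also ended without untreated uninjured replicate 1 or 3.

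The gene lgals9l1 lay at 1.38, 1.96 and 2.55 CPM in untreated uninjured retinas and at 15.6, 18.4 and 91.7 CPM with DMSO. It rose by 4.41 ± 0.65 (adjusted p = 0.00018), or by 3.12 without DMSO replicate 3. The gene lgals3bp.1 lay at 13, 19.7 and 14 CPM uninjured and at 60.6, 55.3 and 262 CPM with DMSO, a rise of 3.02 ± 0.48 (adjusted p = 0.00034), or of 1.90 without that library. Even the lowest DMSO library was above the highest uninjured library for both genes. The gene hcls1, which encodes a leukocyte cortactin-like actin regulator, went from 1.19, 1.03 and 0.516 CPM to 3.86, 4.73 and 19.9 CPM (3.37 ± 0.57, adjusted p = 0.00053, and 2.22 without that library). The gene spp1 went from 0.38, 0.0726 and 0.217 CPM to 1.73, 2.2 and 9.63 CPM (4.37 ± 1.00, adjusted p = 0.0046, and 3.16 without it).

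The oxidase adapter gene ncf1 (p47phox) shows how far 1 library can carry a group mean. It lay at 1.44, 1.69 and 0.76 CPM in uninjured retinas and at 1.75, 2.22 and 66 CPM with DMSO, so its called rise of 4.15 ± 1.14 (adjusted p = 0.014) ended without DMSO replicate 3. The gene cd74a lay at 18.8, 38.1 and 21.0 CPM uninjured and at 8.99, 10.1 and 48.0 CPM with DMSO, where 2 libraries were below and 1 above all uninjured ones. Without DMSO replicate 3 it was called lower, with a log2 fold change of -1.45 (adjusted p = 0.018).

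**Figure D5:**
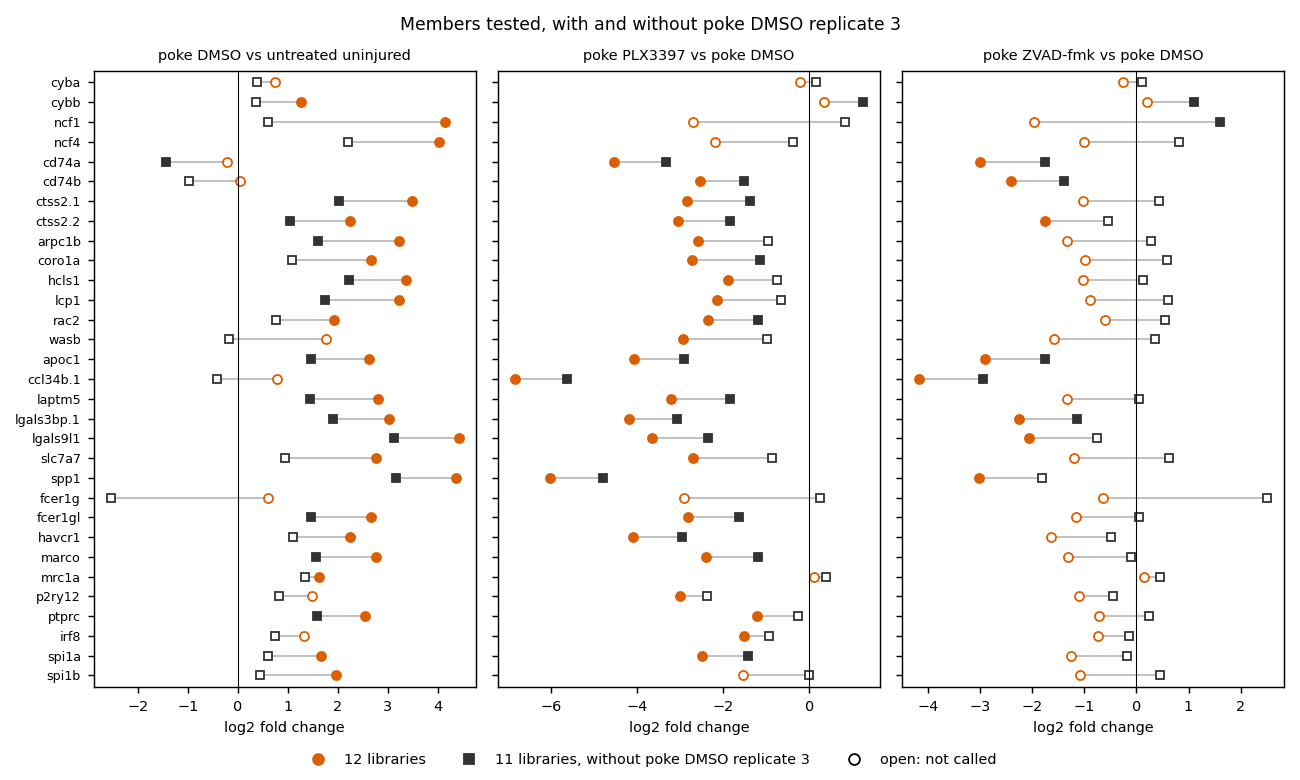
Log2 fold change (horizontal axis) of the tested genes (rows) in the 3 comparisons that use the poke DMSO group, from all 12 libraries (circles) and from 11 libraries without DMSO replicate 3 (squares), filled where called and open where not. Squares lie nearer to 0 than circles for most genes: the median moves from 2.53 to 1.08 against uninjured retinas and from -2.71 to -1.2 for PLX3397 against DMSO.

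With PLX3397, injured retinas expressed less of most of the list than with DMSO. Of 31 genes, 24 were lower and none was higher, beside 17.7% and 16.5% of all tested genes, with a median log2 fold change of -2.71. All 6 actin genes, all 4 antigen and phagosome genes and all 7 secreted, lysosomal and transport genes were called lower, whereas none of the 4 oxidase genes was. The other genes without a call were spi1b, mrc1a and fcer1g. Without DMSO replicate 3, 16 genes were called lower and cybb was called higher, beside 27% of all tested genes called either way in that fit. The median was then -1.2. When the 4 libraries that stood apart were left out, 19 of 30 genes were called lower and 1 higher, with a median of -1.44, beside 38.6% of all tested genes called either way in that fit. Some markers of other cells were lower with PLX3397 too: summed rod markers were 144 to 325 CPM against 938 to 1110 CPM with DMSO, cone markers 1170 to 1800 against 2100 to 3070 CPM, and pigment cell markers 1.64 to 5.05 against 7.67 to 12.4 CPM. Summed endothelium markers were higher, at 120 to 138 against 74.7 to 102 CPM. Among these kdrl was higher, while the cdh5 and tie1 ranges overlapped. The part of these shifts in the lower levels of the list was not tested.

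The chemokine gene ccl34b.1 lay at 4.07, 4.44 and 21.1 CPM with DMSO and at 0.115, 0 and 0.139 CPM with PLX3397, wide apart. Its log2 fold change was -6.84 ± 0.86 (adjusted p = 8.6e-05), or -5.63 without DMSO replicate 3. The gene cd74a lay at 1.54, 0.534 and 0.755 CPM with PLX3397, below all DMSO libraries (-4.55 ± 0.67, adjusted p = 0.00024, and -3.32 without DMSO replicate 3). The gene apoc1 lay at 59.8, 65.5 and 291 CPM with DMSO and at 5.84, 10.5 and 8.42 CPM with PLX3397, which did not overlap (-4.07 ± 0.52, adjusted p = 9.8e-05, and -2.92 without that library).

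The 5 receptors ranged from -4.11 to 0.11, and 4 were called lower. The receptor mrc1a had no call (0.11 ± 0.50, adjusted p = 0.9), and ptprc was lower by a smaller amount (-1.22 ± 0.44, adjusted p = 0.047). The gene havcr1 lay at 4.18, 3.66 and 18.4 CPM with DMSO and at 0.311, 0.356 and 0.854 CPM with PLX3397 (-4.11 ± 0.72, adjusted p = 0.0008, and -2.96 without DMSO replicate 3). The gene lgals3bp.1 lay at 6.42, 6.39 and 7.69 CPM with PLX3397 (-4.21 ± 0.51, adjusted p = 7e-05, and -3.08 without it). The gene p2ry12, the nucleotide receptor that marks resting microglia in mammals, lay at 0.506, 0.945 and 1.96 CPM with DMSO and at 0.0655, 0.0356 and 0.318 CPM with PLX3397. Its groups did not overlap (-3.02 ± 1.00, adjusted p = 0.033), but the call ended without DMSO replicate 2 or 3 or without PLX3397 replicate 1 or 2.

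Besides p2ry12, the calls of arpc1b, hcls1, irf8, lcp1, ptprc, slc7a7 and wasb ended without DMSO replicate 3 or without PLX3397 replicate 1, and the other 16 remained when any 1 library was left out. The oxidase gene cybb lay at 10.9, 7.45 and 11.6 CPM with PLX3397 against 4.20, 4.25 and 15.3 CPM with DMSO. Its PLX3397 libraries lay above 2 DMSO libraries and below DMSO replicate 3, and without that library cybb was called higher by 1.24. The summed neutrophil markers were 9.46 to 17.9 CPM with PLX3397, a range that overlapped with that of DMSO, and their part in the oxidase levels was not tested.

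Set against untreated uninjured retinas, a comparison that does not use the DMSO group, PLX3397 retinas had 4 genes higher and 5 lower of 31, beside 23% and 19.9% of all tested genes, and a median of -0.17. Higher were ptprc, mrc1a, cybb and hcls1, and lower were cd74a, cd74b, apoc1, havcr1 and ccl34b.1. For cd74a the log2 fold change was -4.77 ± 0.67 (adjusted p = 9.3e-05), and for cd74b, at 6.56, 10.1 and 6.19 CPM uninjured and 0.917, 1.67 and 1.45 CPM with PLX3397, it was -2.50 ± 0.53 (adjusted p = 0.0018). The gene ccl34b.1 lay at 4.12, 7.66 and 5.35 CPM uninjured, far above all PLX3397 libraries (-6.06 ± 0.85, adjusted p = 8.6e-05). The gene cybb lay at 2.44, 3.97 and 3.42 CPM uninjured, below all PLX3397 libraries (1.60 ± 0.43, adjusted p = 0.0085).

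The calls of cd74a, cd74b, ccl34b.1 and cybb remained when any 1 library was left out. Those of apoc1, havcr1, hcls1, mrc1a and ptprc did not, and all of them ended without PLX3397 replicate 2. Without the 4 libraries that stood apart, 16 genes were called, 11 of them higher and 5 lower, beside 47.8% of all tested genes called either way in that fit.

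With ZVAD-fmk, 8 of 31 genes were lower and none was higher than with DMSO, beside 8.96% and 9.7% of all tested genes, with a median log2 fold change of -1.2. The lower genes were cd74a, cd74b, ctss2.2, apoc1, lgals3bp.1, lgals9l1, spp1 and ccl34b.1, and no transcription factor, receptor, oxidase or actin gene was called. Without DMSO replicate 3 the median was 0.11 and 7 genes were called: cd74a, cd74b, lgals3bp.1, apoc1 and ccl34b.1 lower, and ncf1 and cybb higher. That fit called 14.5% of all tested genes either way. Without the 4 libraries that stood apart, 7 of 30 genes were called lower and 2 higher, with a median of -0.03, beside 28.5% of all tested genes called either way in that fit. Summed rod markers were 284 to 356 CPM and cone markers 839 to 1120 CPM with ZVAD-fmk, both below the DMSO ranges. Summed neutrophil markers were 26.9 to 27.4 CPM, mostly nccrp1 at 21.3, 21.1 and 22.1 CPM, against 12, 11 and 34.8 CPM with DMSO. Summed erythrocyte markers were 28.6 to 42.9 CPM, against 7.33, 6.8 and 36.5 CPM with DMSO. The part of these shifts in the calls, with or without DMSO replicate 3, was not tested. The calls of ctss2.2, lgals9l1 and spp1 ended without DMSO replicate 3 and without ZVAD-fmk replicate 2 or 3.

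The gene ccl34b.1 lay at 0.43, 0.403 and 0.814 CPM with ZVAD-fmk, below all DMSO libraries (-4.16 ± 0.71, adjusted p = 0.0015). The gene apoc1 lay at 18.3, 18 and 19.4 CPM with ZVAD-fmk (-2.90 ± 0.49, adjusted p = 0.0015, and -1.75 without DMSO replicate 3). The gene cd74a lay at 3.75, 2.49 and 2.18 CPM with ZVAD-fmk (-2.99 ± 0.61, adjusted p = 0.0047, and -1.76 without it). In all 3 genes every ZVAD-fmk library lay below every DMSO library.

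Against untreated uninjured retinas, ZVAD-fmk retinas had 10 genes higher and 3 lower, beside 21.9% and 18.6% of all tested genes, and a median of 1.35. Lower were again cd74a (-3.21 ± 0.61, adjusted p = 0.00098), cd74b (-2.37 ± 0.52, adjusted p = 0.0026) and ccl34b.1 (-3.37 ± 0.69, adjusted p = 0.0016). These 3 calls share their uninjured libraries with the PLX3397 comparison. Higher were lcp1, ptprc, mrc1a, cybb, ncf4, lgals9l1, fcer1gl, hcls1, arpc1b and ctss2.1, for example lgals9l1 at 13.9, 8.67 and 7.65 CPM with ZVAD-fmk (2.36 ± 0.61, adjusted p = 0.0074). The calls of arpc1b, cybb, fcer1gl, lcp1, mrc1a and ncf4 ended when 1 library was left out, mostly an untreated uninjured replicate 1 or 3 or ZVAD-fmk replicate 1. Without the 4 libraries that stood apart 23 genes were called, 20 of them higher, beside 48.6% of all tested genes called either way in that fit. The summed neutrophil markers were 26.9 to 27.4 CPM with ZVAD-fmk against 10 to 15.9 CPM in uninjured retinas, and their part in the rises was not tested.

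The inhibitors were also set against each other, without the DMSO group. Only havcr1 and lgals3bp.1 were called lower with PLX3397 than with ZVAD-fmk, 2 of 31 genes, beside 4.81% of all tested genes, and none was called higher, beside 3.43%. The gene havcr1 lay at 2.84, 2.34 and 3.19 CPM with ZVAD-fmk against at most 0.854 CPM with PLX3397 (-2.47 ± 0.69, adjusted p = 0.044). The gene lgals3bp.1 lay at 26.2, 27.6 and 25.4 CPM with ZVAD-fmk, above all PLX3397 libraries (-1.95 ± 0.47, adjusted p = 0.026). Both calls ended without any 1 of the 6 libraries. For 24 of the 31 genes every PLX3397 library lay below every ZVAD-fmk library, where 35.5% of all tested genes had groups that did not overlap. Without the 4 libraries that stood apart 17 genes were called lower, beside 26.3% of all tested genes called either way in that fit.

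Some genes of the list were close to the detection limit. The gene siglec15l had at most 1 count in 9 of the 10 groups and reached 0.185 CPM in 1 DMSO library. The adapter tyrobp (DAP12) stayed at or below 0.397 CPM in the poke libraries and at or below 0.708 CPM in the NMDA libraries. The gene p2ry12 had 2 counts in the csf1ra mutant uninjured group, and in wild type it lay at 0.124, 0.11 and 0.113 CPM uninjured and at 0.168, 0.647 and 0.261 CPM after NMDA. The adapter fcer1g had 3 counts or fewer in the csf1ra mutant groups and in injured csf1rb mutants, whereas its relative fcer1gl was detected in every library. Reads of such near copies, as of cd74a and cd74b or ctss2.1 and ctss2.2, may be split between them by the counting.

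Rows beside the list hold close relatives under other names. The RefSeq gene table gives grn1 and grn2 as synonyms of grna.1 and grna.2, small granulin genes. In wild type grna.1 lay at 0.0413, 0.147 and 0.0755 CPM uninjured and at 17.0, 26.9 and 32.0 CPM after NMDA (8.07 ± 0.52, adjusted p = 4.5e-10). It reached 3.58, 5.68 and 7.25 CPM in injured csf1ra mutants and 3.11, 2.72 and 1.52 CPM in injured csf1rb mutants, below all injured wild-type libraries. In the poke experiment grna.1 lay at 4.1, 1.02 and 2.9 CPM in untreated uninjured retinas and was called higher with DMSO, at 16.4, 15.6 and 72.9 CPM. It lay at 8.7, 20 and 23 CPM with PLX3397 and at 45, 42 and 41 CPM with ZVAD-fmk. There grna.2 had no count in untreated uninjured retinas and lay at 3.71, 1.3 and 5.09 CPM with PLX3397. That was at least 145-fold higher with the uninjured group set to 3 counts in all. The gene grna.2 was higher with PLX3397 than with DMSO too, at 0.194, 0 and 0.499 CPM with DMSO (3.86 ± 1.01, adjusted p = 0.013).

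Another 3 Ensembl rows share the symbol MPEG1, which marks macrophages in zebrafish, and none carries the name mpeg1.1 or mpeg1.2. The row ENSDARG00000055290 lay at 1.82, 1.25 and 0.981 CPM in wild-type uninjured retinas and at 4.72, 6.81 and 4.40 CPM after NMDA (1.98 ± 0.28, adjusted p = 5.8e-06). In csf1rb mutants it lay at 0.651, 0.555 and 0.516 CPM before and 0.375, 0.454 and 0.671 CPM after NMDA, and the interaction was called (-2.17 ± 0.44, adjusted p = 0.0063). With PLX3397 it lay at 1.49, 2.03 and 3.18 CPM, below 10.1, 9.99 and 57.1 CPM with DMSO (-3.53 ± 0.61, adjusted p = 0.00074). All PLX3397 libraries were below all DMSO libraries. The row ENSDARG00000043093 differed in part. In csf1rb mutants it went from 0.0407, 0 and 0.0573 CPM to 0.525, 0.669 and 0.389 CPM after NMDA. It lay at 0.46, 1.09 and 3.97 CPM in injured csf1ra mutants, against 1.78, 2.74 and 1.79 CPM in injured wild type. With PLX3397 it lay at 0.851, 1.82 and 0.854 CPM, against 0.204, 0.801 and 8.32 CPM with DMSO. The row ENSDARG00000078569 stayed at or below 0.167 CPM in all libraries.

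A second list held 28 other genes linked with macrophages and leukocytes, among them csf1ra and csf1rb themselves and the kinases syk and btk, of which 25 had a row. It too was chosen with earlier results of these data known. Poke injury with DMSO raised 14 and lowered 2 of 24 tested, beside 18.2% and 13.4% of all tested genes, and PLX3397 lowered 15 and raised 1 relative to DMSO, beside 17.7% and 16.5%. DMSO replicate 3 was high for these genes too, as for the complement gene c1qb at 5.44, 5.92 and 31.1 CPM. Without it the 16 calls of each comparison became 7 and 9, beside 26.6% and 27% of all tested genes called either way. The PLX3397 count also became 10 without PLX3397 replicate 2, beside 30.9% of all tested genes. NMDA raised 14 and lowered 3 of 23 in wild type, beside 35.6% and 34.3% of all tested genes. It raised 12 and lowered 5 in csf1ra mutants, beside 36.4% and 37.1%. In csf1rb mutants it raised 6 and lowered 7 of 23, both smaller shares than the 37% and 33.5% of all tested genes. Uninjured mutants of either gene had 9 genes lower and 1 higher than wild type, beside 6.74% and 7.94% of all tested genes for csf1ra and 12.4% and 14.5% for csf1rb mutants. The csf1rb mutant count became 5 or 6 in all without wild-type replicate 3 or without csf1rb mutant replicate 1 or 2. Those fits called 19.3%, 21% and 18.7% of all tested genes either way. After NMDA 10 were lower and 3 higher in csf1ra mutants, beside 13.2% and 9.24%, and 17 were lower and 3 higher in csf1rb mutants, beside 11.4% and 11.9%. The list includes the targeted genes csf1ra and csf1rb, which can be low in their own mutants through the genotype itself. Counts of calls that leave them out were not made.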

How the data were processed

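Whole-retina polyA RNA of 30 zebrafish libraries was sequenced in 2 experiments, which are also the batches in the labels, so each was fitted alone. The deposited expected counts per Ensembl gene were made by the authors. The submitters' processing notes name cutadapt 4.8, FastQC 0.11.8, STAR 2.7.8a, RSEM 1.3.3 and GRCz11. Strand use in counting is not given in the sources used here. In the table of the poke experiment, 9 columns without a matching sample were not used. Libraries of a group were no copies of each other: their counts differed with a chi-square of at least 7.56 per degree of freedom.

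Counts were made whole numbers by dropping any decimals. They were tested with edgeR 4.0.16 (R 4.3.3, limma 3.58.1), with TMM scaling, filterByExpr and robust quasi-likelihood F tests over all groups of an experiment. Benjamini-Hochberg adjustment ran over 21334 (poke) or 20254 (NMDA) tested genes, in 17 comparisons. Scripts were tested on simulated data. Alternatives were DESeq2 1.42.0, other scaling and filters, a replicate block, fits of the compared groups alone and left-out libraries. The genes and lists were chosen with earlier results of these data known. A fold change with its p is printed for called genes, other genes get CPM. Library depth limits genes with few counts. Floors of 3 counts cover counting error only. Promoters and proteins were not used here.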

Additional observations from a re-analysis of the deposited data

Results flagged for a closer look

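A difference in the NMDA response between a mutant and wild type was called, by the interaction test of edgeR with Benjamini-Hochberg adjustment over 20254 genes, for the following genes. In csf1ra mutants the log2 difference was -1.22 for coro1a, 2.78 for cd74a, 1.96 for cd74b, 1.86 for irf8, -1.31 for cybb and 1.79 for lgals9l1. In csf1rb mutants it was -2.27 for lcp1, -1.72 for coro1a, -1.89 for apoc1, -2.76 for lgals3bp.1, -1.86 for lgals9l1, -1.39 for arpc1b, -2.13 for ctss2.2 and -2.17 for the MPEG1 row ENSDARG00000055290. The gene lgals9l1 differed in both mutants, with a larger log2 rise than wild type in csf1ra mutants and a smaller one in csf1rb mutants. In csf1ra mutants the rise started from 0.202, 0.175 and 0.295 CPM and reached 5.10, 6.24 and 8.91 CPM. Wild type went from 1.24, 1.5 and 1.36 CPM to 12.7, 14.0 and 8.43 CPM. The gene coro1a had a smaller response than wild type in both. Both tests use the same wild-type libraries, so they are not independent. Among the list genes, the calls of cd74b, coro1a, cybb and lgals9l1 in csf1ra mutants ended when 1 library was left out. So did that of ctss2.2 in csf1rb mutants.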

How the results depend on the processing

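In all settings run, no gene called in the main edgeR fits changed direction. Genes without a call in those fits were not followed in this way. For ZVAD-fmk against DMSO, ncf1 was such a gene and was called higher without DMSO replicate 3. The list median of that comparison then moved from -1.2 to 0.11. The numbers of list genes called that moved beyond 1.5 times follow. Percentages in brackets are the share of all tested genes called either way in the same fit. For PLX3397 against ZVAD-fmk, 2 calls among 31 genes (8.24%) became 8 with DESeq2 (16.6%). They became 0 of 33 with edgeR without the filter (12 at an unadjusted p below 0.05, 5.82%). With only the compared groups 14 of 30 were called (10.5%), and without the 4 libraries that stood apart 17 of 30 (26.3%). With only the compared groups, 15 of 29 were called for poke DMSO against uninjured (27.5%) and 21 of 31 for ZVAD-fmk against uninjured (46.3%). In such fits 15 of 24 were called for csf1ra mutant against wild type uninjured (8.28%) and 13 of 25 for NMDA in csf1rb mutants (73.9%). For csf1ra against csf1rb mutant uninjured 0 of 16 were called (5 unadjusted, 4.26%), and 8 of 30 with DESeq2 (20.4%). Without the 4 libraries, 23 of 30 were called for ZVAD-fmk (48.6%) and 16 of 30 for PLX3397 (47.8%) against uninjured. Replicate numbers do not pair the libraries: same-numbered libraries correlated with a median of -0.09 (poke) and 0.01 (NMDA). A replicate block gave 5 calls for ZVAD-fmk against DMSO (17.2%) and 2 for csf1ra against csf1rb mutant uninjured (14.3%), with the other counts within 1.5 times. Leaving out 1 library gave ranges of 14 to 24 calls for DMSO against uninjured (25.3% to 29.7%). Against DMSO they were 16 to 27 for PLX3397 (26.5% to 30.9%) and 5 to 9 for ZVAD-fmk (10.6% to 14.5%). For PLX3397 against ZVAD-fmk they were 0 to 0 (7 to 13 unadjusted, 1.28% to 11.7%). Against uninjured they were 4 to 6 for PLX3397 (35.2% to 40%) and 9 to 13 for ZVAD-fmk (31.5% to 39%). After NMDA they were 22 to 23 in wild type (64.1% to 65.6%), 22 to 24 in csf1ra mutants (68.7% to 73.7%) and 14 to 18 in csf1rb mutants (65.5% to 66.5%). Against wild type, uninjured, they were 19 to 24 for csf1ra (7.75% to 21.3%) and 16 to 20 for csf1rb mutants (18.7% to 23.1%). Against wild type after NMDA they were 16 to 21 for csf1ra (15% to 21.5%) and 21 to 23 for csf1rb mutants (16.7% to 20.8%). Between mutants they were 2 to 8 uninjured (8.65% to 19.5%) and 7 to 11 after NMDA (8.67% to 14.6%). For the interactions they were 2 to 7 in csf1ra (2.9% to 7.82%) and 6 to 7 in csf1rb mutants (4.78% to 8.66%). The cause of these moves was not tested, and fewer libraries leave fewer degrees of freedom.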
